A study of Mus musculus with 12 samples.

Results

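The genes described here are the transcription factor p53 (Trp53) and 9 of its target genes: Mdm2, Ccng1, Pmaip1, Sesn2, Bax, Bbc3, Phlda3, Zmat3 and Trp53inp1. They were chosen by name, as the probe sets that the array annotation gives to these symbols. Of the 10 listed genes, 8 had a probe set, 1 each, among 19494 genes with a named probe set. Trp53 and Bax had none and were not analysed here. The values come from 12 single-colour arrays of mouse blood stem and progenitor cells, 3 arrays in each of 4 groups.

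The donors of the wild-type cells were Nfat5 +/+ Vav-Cre mice, and those of the NFAT5-deficient cells Nfat5 fl/fl Vav-Cre mice. Vav-Cre drives recombination in blood-forming cells, and the wild-type controls carried it too. Donor marrow of the CD45.2 background had been given to irradiated CD45.1 wild-type hosts, and 13 weeks later CD45.2+ cells were sorted from host marrow, so all 4 groups had been through transplantation into an irradiated marrow. Hematopoietic stem cells (HSC) were CD48-CD150+ and multipotent progenitors (MPP) CD48+CD150-, both within the lineage-negative, Sca-1+, Kit+ (LSK) compartment. The arrays carry the numbers 66, 67 and 75 (wild-type) and 64, 70 and 76 (NFAT5-deficient), and the labels do not say whether the replicates of a group came from separate animals, so p-values measure the spread between these samples, which may be technical. Ages are not stated in those labels. Because the samples are bulk RNA, fewer cells expressing a gene and less RNA per cell cannot be told apart.

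p53 is a transcription factor that is held at a low level by the ubiquitin ligase MDM2 and is stabilised after DNA damage and other stress. It then activates genes for cell cycle arrest, repair, metabolic restraint and apoptosis, and it also activates Mdm2, which closes a negative feedback loop. In HSC, p53 is known for supporting quiescence and for eliminating damaged stem cells after irradiation or transplantation stress. Most of its regulation acts on the protein, which arrays do not measure, so the RNA levels of its target genes are described here. Whether p53 set these levels was not tested.

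p53 binds a pair of adjacent 10-base elements, each close to a consensus known as the p53 half-site. The consensus was searched for in the RefSeq promoter windows of assembly GRCm38.p6, which run from 250 bases before to 50 bases after a gene's start (300 bases). It reads the same on both strands. A match was found in 8.36% of 32851 windows, and 9.55% of 27025 genes had a match in at least 1 window. Among the measured genes, Mdm2 and Ccng1 had 1 match each, at -186 to -177 and at -185 to -176 from the start that the window is built on. Sesn2, Phlda3 and the 3 windows of Bbc3 had none. For Zmat3, Trp53inp1 and Pmaip1 no window was used here. A match is a description of the letters and not a binding site, and its absence says only that these letters are not in this window, since p53 response elements often lie in introns or farther upstream. The stretches upstream of the genes are printed for the feedback pair Mdm2 and Ccng1, with the match in capitals, and for Sesn2 as a gene without a match. The window of Ccng1 is built on a start inside the annotated gene, and its printed stretch stops at the gene's edge, so its capitals lie nearer to the end of the print than to that start. All 3 lie on the minus strand and are written 5′ to 3′ in the direction of transcription.
Mdm2 (chr10:117710759-117711008): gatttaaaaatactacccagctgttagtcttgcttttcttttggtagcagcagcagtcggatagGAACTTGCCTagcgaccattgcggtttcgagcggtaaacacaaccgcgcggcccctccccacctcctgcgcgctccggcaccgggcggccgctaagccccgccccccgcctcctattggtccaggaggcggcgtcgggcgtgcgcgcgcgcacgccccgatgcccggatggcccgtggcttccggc
Ccng1 (chr11:40755310-40755536): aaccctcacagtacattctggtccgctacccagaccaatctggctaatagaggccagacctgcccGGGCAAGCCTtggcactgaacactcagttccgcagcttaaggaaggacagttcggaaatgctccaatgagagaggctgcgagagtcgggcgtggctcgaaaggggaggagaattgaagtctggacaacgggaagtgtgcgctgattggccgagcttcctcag
Sesn2 (chr4:132510457-132510706): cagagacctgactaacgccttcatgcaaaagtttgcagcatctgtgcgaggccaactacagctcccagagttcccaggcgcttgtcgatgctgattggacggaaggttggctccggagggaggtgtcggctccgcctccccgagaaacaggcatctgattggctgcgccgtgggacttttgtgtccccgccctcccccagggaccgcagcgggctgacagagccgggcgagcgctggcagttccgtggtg
The matched letters were GAACTTGCCT in Mdm2 and GGGCAAGCCT in Ccng1.

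The arrays were on a common scale, with medians of 6.40 to 6.53 on the log2 scale and correlations of 0.898 to 0.952 between arrays of a group. The markers that parted HSC from MPP in the sort followed it in RNA. Slamf1, which encodes CD150, averaged 9.84 and 10.08 in wild-type and NFAT5-deficient HSC against 6.26 and 6.46 in MPP, and Cd48 averaged 6.48 and 6.50 in HSC against 9.92 and 10.28 in MPP. Other listed markers were less uniform. The 6 measured HSC markers together averaged 9.19 and 9.25 in HSC against 7.30 and 7.68 in MPP. Of these, Procr alone read lower in NFAT5-deficient HSC than in NFAT5-deficient MPP (7.08 against 7.35). The 6 MPP and lymphoid priming markers averaged 6.67 and 6.50 in HSC against 9.73 and 9.98 in MPP, but Il7r averaged 5.34 in both wild-type groups. Nfat5 read 1.25 lower on the log2 scale in NFAT5-deficient HSC (9.49 against 8.24, limma adjusted p = 0.772, arrays not overlapping) and 0.66 lower in MPP (8.58 against 7.92, limma adjusted p = 0.896, arrays overlapping). The part of Nfat5 that the probe set covers was not known here. Wild-type HSC array 66 and NFAT5-deficient HSC array 70 stood farthest apart along principal component 2 of all genes (58.1 and -42.8, with the other 10 arrays between -25.2 and 19.7), and the HSC results are also given without them. The mean of 9 mature neutrophil genes differed between arrays and is given beside the genotype results.

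Of the 8 genes, 3 had a level above background in every group and 5 did not. Background was taken as the 95th percentile of 1091 olfactory receptor genes and lay at 6.30 on the log2 scale. That most of these genes are silent in the sorted cells was assumed and not tested. Mdm2, the ubiquitin ligase that degrades p53, lay at 7.98 to 9.0 over the 12 arrays. Ccng1, whose product cyclin G1 recruits a phosphatase to MDM2 and takes part in the same feedback, lay at 7.63 to 9.70. Bbc3, which encodes the BH3-only killer protein PUMA, lay at 7.15 to 7.80. These genes were well within the measured range in both populations and genotypes.

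The other 5 genes had a mean over the 12 arrays below that level. Pmaip1 (NOXA, a BH3-only protein that neutralises MCL1) lay at 5.63 to 6.22, Sesn2 (sestrin 2, which restrains mTORC1 in response to stress) at 5.46 to 6.06, and Zmat3 (an RNA-binding zinc finger protein) at 5.60 to 6.18. Phlda3, an inhibitor of AKT signalling, lay at 5.22 to 6.30. Trp53inp1, whose product acts with p53 in the stress response, lay at 4.42 to 7.77, and its mean exceeded the background level in 1 group, NFAT5-deficient MPP (6.72). Small differences in the 4 genes that never exceeded it are differences between dim signals.

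The spread between replicates set what could be seen in each gene. Pooled over the groups, the SD within a group was 0.11 in Zmat3, 0.14 in Sesn2 and in Pmaip1, 0.22 in Bbc3, 0.26 in Phlda3, 0.37 in Mdm2 and 0.45 in Ccng1. In Trp53inp1 it was 0.87, larger than in 91.7% of all genes.

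**Figure D1:**
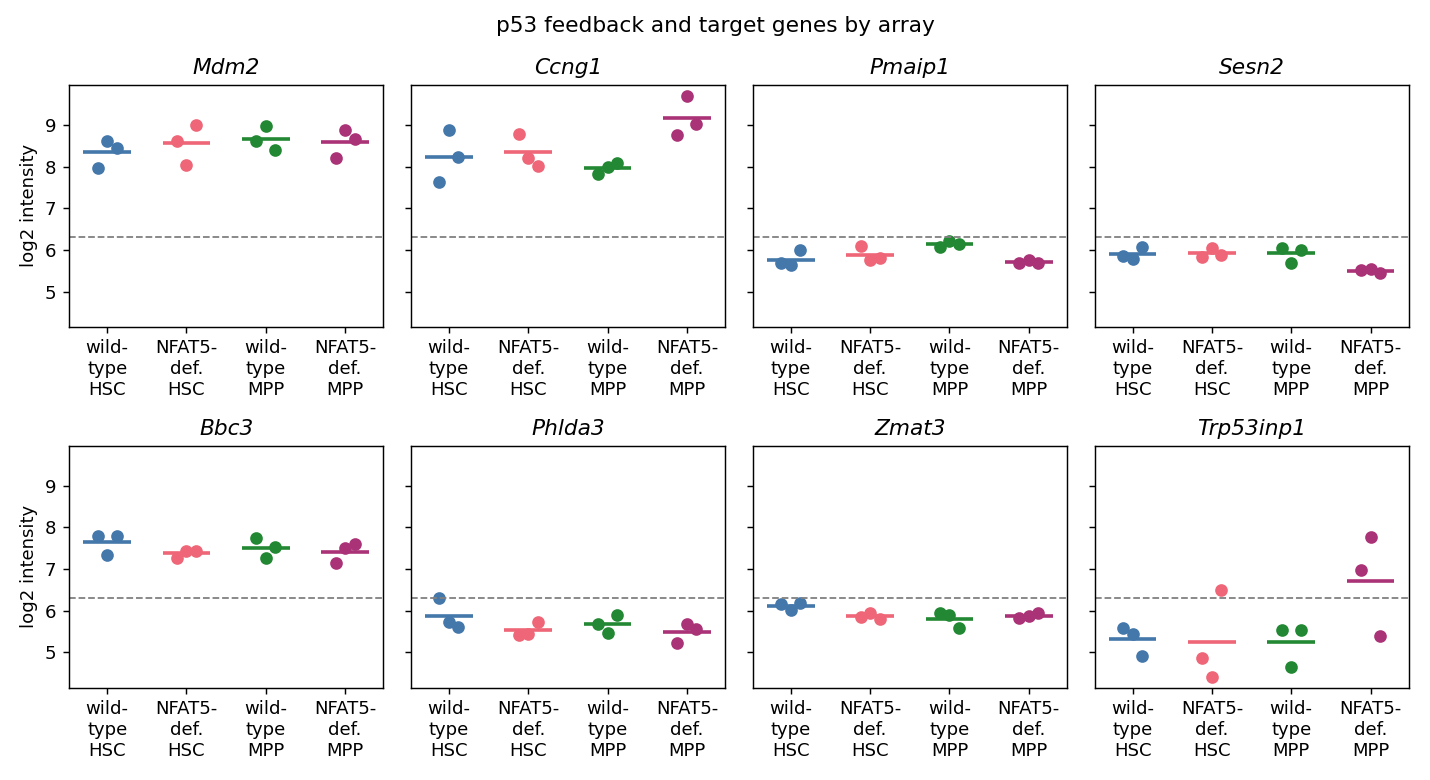
Log2 intensity (vertical axis) of the 8 measured genes on each of the 12 arrays, by group (horizontal axis; NFAT5-def. stands for NFAT5-deficient), with each point an array, each short line a group mean, and the dashed line the background level of 6.30. Mdm2, Ccng1 and Bbc3 lie above the dashed line on every array, and in Ccng1 the 3 NFAT5-deficient MPP arrays lie above the 3 wild-type MPP arrays.

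Loss of NFAT5 in MPP was compared first, because the widest genotype differences of the set lay there. Differences are NFAT5-deficient minus wild-type on the log2 scale, from a limma fit of the 4 groups over all genes, and genes with an adjusted p below 0.05 count as called. None of the 8 genes was called, where 0.00513% of all genes were (1 gene). At an unadjusted p under 0.05, 4 of the 8 genes passed, where 5.35% of all genes did, and in 3 of the 8 the arrays of the groups did not overlap, as in 12.6% of all genes. The differences went both ways: 3 genes read higher and 5 lower, with a median of -0.09 beside -0.07 over all genes.

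Ccng1 read 8.77, 9.70 and 9.01 on NFAT5-deficient MPP arrays 64, 70 and 76 and 7.83, 7.98 and 8.09 on wild-type arrays 66, 67 and 75. Every NFAT5-deficient array lay above every wild-type array. The means were 9.16 ± 0.48 and 7.97 ± 0.13 (SD, n = 3 each), a difference of 1.19 (SE 0.36, 95% interval 0.39 to 2.0), or 2.29-fold. In limma the unadjusted p was 0.00747 and the adjusted p 0.871. The exact two-sided permutation test gave p = 0.1, the smallest that this test can give for 3 against 3 arrays.

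Mdm2, the other feedback gene, did not share this difference. It read 8.21, 8.87 and 8.68 on the NFAT5-deficient MPP arrays and 8.61, 8.97 and 8.40 on the wild-type arrays. These groups overlapped, and their difference of -0.08 (95% interval -0.77 to 0.62, limma adjusted p = 0.983) leaves room for a change of either sign of up to that size.

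Pmaip1 and Sesn2 read lower in NFAT5-deficient MPP. Pmaip1 read 5.68, 5.76 and 5.68 against 6.08, 6.22 and 6.13 in wild-type MPP, a difference of -0.44 (SE 0.13, 95% interval -0.72 to -0.15, limma adjusted p = 0.871). Sesn2 read 5.52, 5.54 and 5.46 against 6.05, 5.70 and 6.01, a difference of -0.41 (SE 0.12, 95% interval -0.69 to -0.14, limma adjusted p = 0.871). In both genes all 3 NFAT5-deficient arrays lay below all 3 wild-type arrays, and the unadjusted limma p was 0.00629 for Pmaip1 and 0.00739 for Sesn2. For each the exact two-sided permutation p was 0.1. All of these values lay below the background level of 6.30, and the folds were small, 1.35 for Pmaip1 and 1.33 for Sesn2.

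Trp53inp1 had the widest difference and the widest spread. It read 6.98 and 7.77 on NFAT5-deficient MPP arrays 64 and 70, but 5.40 on array 76, against 5.53, 4.64 and 5.54 in wild-type MPP. The groups overlapped through array 76. The difference was 1.48 (SE 0.62, 95% interval 0.10 to 2.86, limma unadjusted p = 0.0373, adjusted p = 0.896), and it was 0.95 without NFAT5-deficient MPP array 70 and 2.14 without array 76.

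The remaining 3 genes differed little between the MPP groups. Bbc3 read 7.15 to 7.59 in NFAT5-deficient and 7.27 to 7.75 in wild-type MPP, a difference of -0.10 (95% interval -0.59 to 0.38). Phlda3 differed by -0.19 (95% interval -0.63 to 0.24) and Zmat3 by 0.07 (95% interval -0.18 to 0.33).

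The mature neutrophil genes (9 of 9 measured) averaged 6.49, 6.62 and 6.02 on NFAT5-deficient MPP arrays 64, 70 and 76 and 6.94, 7.02 and 5.96 on wild-type MPP arrays 66, 67 and 75. In both MPP groups 5 of the 9 had a mean below the background level, and S100a9, their brightest defining gene, averaged 9.19 and 9.50. Their part in the differences of the p53 genes was not tested.

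In HSC, none of the 8 genes was called, as none of all genes was (0%). At an unadjusted limma p under 0.05, 0 of the 8 passed, where 6.18% of all genes did. NFAT5-deficient HSC read higher in 4 genes and lower in 4, with a median difference of -0.02 beside -0.05 over all genes.

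Zmat3 was the only gene of the 8 whose HSC arrays did not overlap, where 10.2% of all genes did not. It read 5.85, 5.96 and 5.81 on NFAT5-deficient HSC arrays 64, 70 and 76 and 6.15, 6.02 and 6.18 on wild-type arrays 66, 67 and 75. The difference was -0.25 (SE 0.12, 95% interval -0.50 to 0.01, limma adjusted p = 0.813), between levels below background.

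Ccng1, which stood apart in MPP, read 8.80, 8.22 and 8.01 in NFAT5-deficient HSC and 7.63, 8.87 and 8.23 in wild-type HSC. The groups overlapped, with a difference of 0.10 (95% interval -0.70 to 0.90, limma adjusted p = 0.977). Mdm2 differed by 0.21 (95% interval -0.48 to 0.91), with 8.62, 8.05 and 9.0 in NFAT5-deficient and 7.98, 8.63 and 8.44 in wild-type HSC. Neither feedback gene was resolved in HSC.

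Among the other targets in HSC, Bbc3 read 7.28, 7.44 and 7.43 in NFAT5-deficient cells and 7.80, 7.34 and 7.79 in wild-type cells. Its difference was -0.26 (95% interval -0.75 to 0.22), with wild-type array 67 inside the NFAT5-deficient range. Phlda3 differed by -0.35 (95% interval -0.79 to 0.09), Pmaip1 by 0.12 (95% interval -0.17 to 0.40) and Sesn2 by 0.02 (95% interval -0.25 to 0.30). Trp53inp1 differed by -0.05 (95% interval -1.43 to 1.32) and read 6.50 on NFAT5-deficient array 76 against 4.42 on array 70.

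Without HSC arrays wild-type 66 and NFAT5-deficient 70, NFAT5 loss in HSC gave -0.27 for Zmat3, 0.28 for Mdm2, -0.15 for Ccng1, -0.21 for Bbc3, -0.10 for Phlda3 and 0.50 for Trp53inp1. No gene was called, and Ccng1, Sesn2 (-0.0691) and Trp53inp1 had the opposite sign. The interaction of Pmaip1 was then 0.59 and that of Sesn2 0.34. HSC minus MPP was -0.34 for Pmaip1 and 0.29 for Zmat3 in wild-type cells and 0.35 for Sesn2 in NFAT5-deficient cells.

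The 9 mature neutrophil genes averaged 6.88, 7.38 and 5.52 on wild-type HSC arrays 66, 67 and 75 and 5.42 to 5.53 on the NFAT5-deficient HSC arrays. Of the 9, 5 in wild-type HSC and all 9 in NFAT5-deficient HSC had a mean below the background level. Their part in the values of the p53 genes was not tested.

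**Figure D2:**
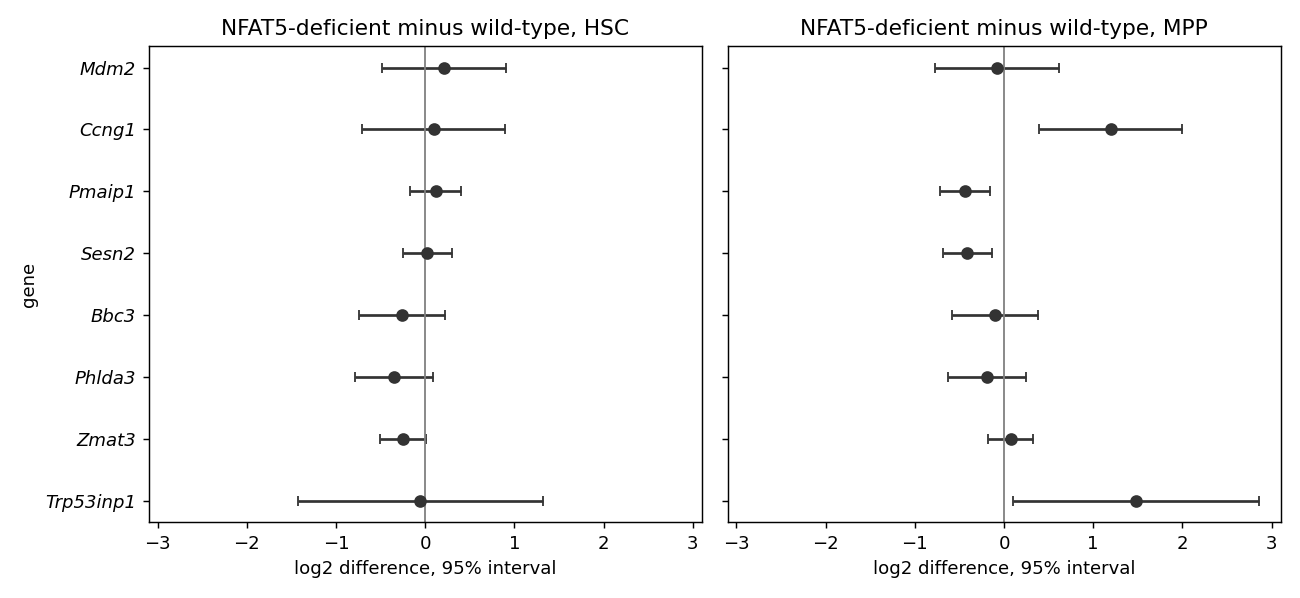
Log2 difference, NFAT5-deficient minus wild-type (horizontal axis), of the 8 genes (vertical axis) in HSC and in MPP; points are limma estimates from 3 arrays a group and bars their 95% intervals, before any adjustment for the number of genes. In HSC every bar reaches 0, and in MPP the bars of Ccng1, Pmaip1, Sesn2 and Trp53inp1 do not.

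Whether the effect of NFAT5 loss differed between HSC and MPP was tested with an interaction term, the HSC difference minus the MPP difference. None of the 8 genes was called, and none of all genes was (0%). At an unadjusted limma p under 0.05, 2 of the 8 passed, where 4.19% of all genes did. These were Pmaip1, with 0.56 (SE 0.18, unadjusted p = 0.0113), and Sesn2, with 0.43 (SE 0.18, unadjusted p = 0.0324), and both had an adjusted p of 0.999. For Ccng1 the interaction was -1.10 (95% interval -2.23 to 0.04, adjusted p = 0.999). A difference in effect between the populations was therefore not established for any of the 8 genes.

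HSC and MPP were compared within each genotype. In wild-type cells none of the 8 genes was called, where 0.164% of all genes were. At an unadjusted limma p under 0.05, 2 of the 8 passed, where 8.9% of all genes did, and the same 2 had arrays that did not overlap, where 12.3% of all genes had. HSC read higher in 5 genes and lower in 3, with a median of 0.10 beside 0.05 over all genes.

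Pmaip1 read 5.69, 5.63 and 5.99 in wild-type HSC, lower than the 6.08, 6.22 and 6.13 of wild-type MPP. The difference was -0.38 (SE 0.13, 95% interval -0.66 to -0.09, limma adjusted p = 0.418). Zmat3 went the other way, with 6.15, 6.02 and 6.18 in HSC and 5.94, 5.89 and 5.60 in MPP, a difference of 0.31 (SE 0.12, 95% interval 0.05 to 0.57, limma adjusted p = 0.48). Both pairs of groups lay below the background level. The remaining 6 genes differed by -0.31 (Mdm2) to 0.28 (Ccng1), with overlapping arrays.

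In NFAT5-deficient cells none of the 8 genes was called between HSC and MPP, where 0.21% of all genes were. At an unadjusted limma p under 0.05, 3 of the 8 passed, where 7.9% of all genes did, and in 1 of the 8 the arrays did not overlap, as in 16.9% of all genes. Sesn2 was that gene, with 5.83, 6.05 and 5.88 in HSC and 5.52, 5.54 and 5.46 in MPP. Its difference was 0.41 (SE 0.12, 95% interval 0.14 to 0.69, limma adjusted p = 0.41). Ccng1 differed by -0.82 (95% interval -1.62 to -0.02, limma adjusted p = 0.621) and Trp53inp1 by -1.46 (95% interval -2.83 to -0.08, limma adjusted p = 0.613), and the arrays of both overlapped between the populations. This comparison shares the NFAT5-deficient MPP arrays with the genotype comparison in MPP, so the values of Ccng1, Sesn2 and Trp53inp1 in these comparisons rest in part on the same 3 arrays. Likewise, the Pmaip1 differences between genotypes in MPP and between populations in wild-type cells share the wild-type MPP arrays. The Zmat3 differences between genotypes in HSC and between populations in wild-type cells share the wild-type HSC arrays.

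**Figure D3:**
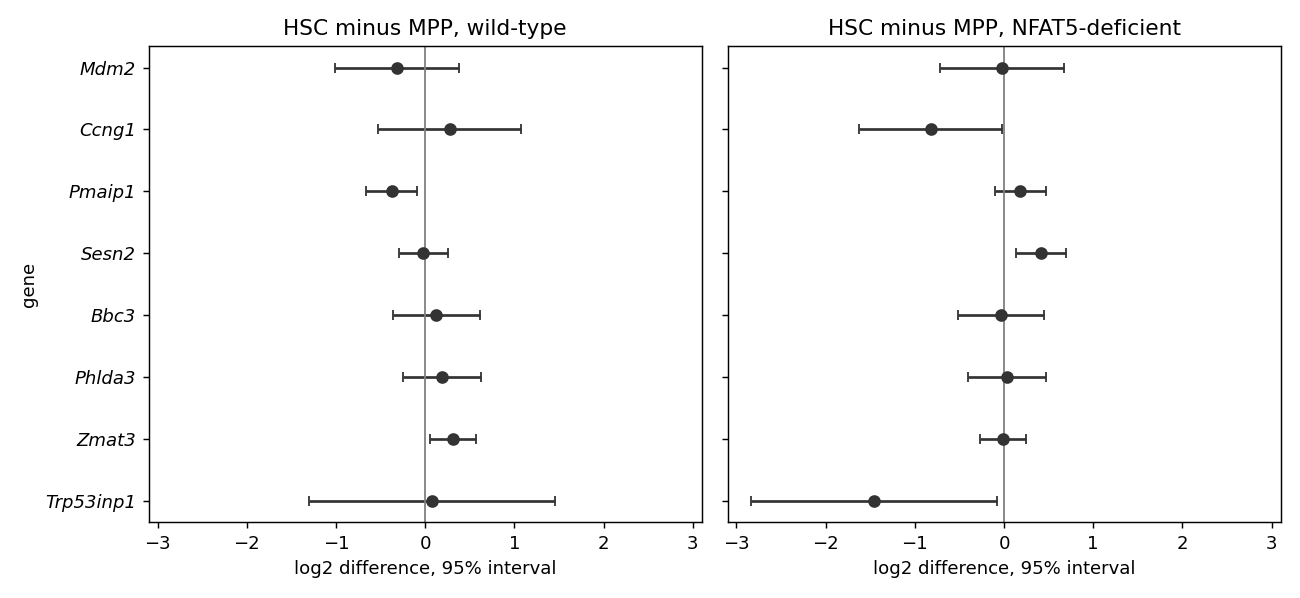
Log2 difference, HSC minus MPP (horizontal axis), of the 8 genes (vertical axis), by genotype; points are limma estimates from 3 arrays a group and bars their 95% intervals, before any adjustment for the number of genes. The bars that do not reach 0 are those of Pmaip1 and Zmat3 in wild-type cells and of Ccng1, Sesn2 and Trp53inp1 in NFAT5-deficient cells.

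Averaging over the other factor used all 12 arrays for each comparison. For NFAT5 loss, averaged over HSC and MPP, none of the 8 genes was called, as none of all genes was (0%). At an unadjusted limma p under 0.05, 1 of the 8 passed, where 7.11% of all genes did. That gene was Ccng1, with 0.65 (SE 0.26, 95% interval 0.08 to 1.21, limma adjusted p = 0.69). The genotype effect on Mdm2 averaged 0.07 (95% interval -0.42 to 0.56), and the median of the 8 genes was -0.12 beside -0.06 over all genes. For HSC minus MPP, averaged over the genotypes, none of the 8 was called, where 0.61% of all genes were (119 genes), and 1 of the 8 passed an unadjusted limma p under 0.05, where 12.2% of all genes did. That gene was Sesn2, with 0.20 (SE 0.09, 95% interval 0.00 to 0.39, limma adjusted p = 0.408). The median of the 8 genes was -0.02 beside 0.06 over all genes.

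Each gene's group means can be ordered only loosely. Mdm2 averaged 8.35 in wild-type HSC, 8.56 in NFAT5-deficient HSC, 8.58 in NFAT5-deficient MPP and 8.66 in wild-type MPP, and Bbc3 averaged 7.38 to 7.64. In both genes neighbouring groups overlapped throughout. Ccng1 averaged 7.97 in wild-type MPP, 8.24 in wild-type HSC, 8.34 in NFAT5-deficient HSC and 9.16 in NFAT5-deficient MPP, and only the last step exceeded the replicate SD of 0.45.

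No measured target gene followed Mdm2 closely from array to array. Pmaip1, Sesn2, Phlda3, Zmat3 and Trp53inp1 had means below background, and 12 arrays are few, so a moderate relation could be missed. Over the 12 arrays, which share their groups, Pearson's r of log2 intensity with Mdm2 was 0.29 for Ccng1, 0.32 for Pmaip1, 0.23 for Trp53inp1, -0.20 for Phlda3, -0.24 for Bbc3 and -0.29 for Sesn2 and Zmat3. The 3 genes most like Mdm2 among all genes were Polr1d (0.92), Cnih4 (0.87) and Dip2b (0.84). These are the highest correlations of all genes tested and are given as a description.

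The wider p53 pathway was followed in 55 further genes, of which 52 had a probe set. They comprised 13 regulators of p53 such as Mdm4, Atm and Chek1, 9 other cell cycle and growth targets such as Cdkn1a and Gadd45a, 9 other apoptosis targets such as Fas and Apaf1, 6 DNA repair targets, 8 metabolic and stress targets (5 measured), 6 BCL2 family partners of BAX, PUMA and NOXA, the p53 relatives Trp63 and Trp73, and the p53 targets Gfi1 and Ndn described in HSC. None of the 52 was called for NFAT5 loss in HSC, in MPP or on average, or for the interaction. In these comparisons 3, 3, 2 and 4 of the 52 had an unadjusted limma p under 0.05. Of all genes, 6.18%, 5.35%, 7.11% and 4.19% did. Between HSC and MPP, 0 of the 52 were called in wild-type cells, 1 in NFAT5-deficient cells and 1 on average over the genotypes. Of all genes, 0.164%, 0.21% and 0.61% were called. At an unadjusted limma p under 0.05, 4, 8 and 8 of the 52 passed, where 8.9%, 7.9% and 12.2% of all genes did.

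That gene was Ndn, which encodes necdin, a p53 target that restrains proliferation of HSC. It was higher in HSC than in MPP. Ndn read 7.10, 6.48 and 6.69 on NFAT5-deficient HSC arrays 64, 70 and 76 against 5.27, 5.38 and 5.42 in NFAT5-deficient MPP, a difference of 1.40 (SE 0.19, limma adjusted p = 0.0202). In wild-type cells it read 6.41, 5.80 and 6.29 in HSC against 5.49, 5.51 and 5.37 in MPP, a difference of 0.71 (SE 0.19, limma adjusted p = 0.266). All 6 HSC arrays lay above all 6 MPP arrays, and the difference averaged over the genotypes was 1.06 (SE 0.13, limma adjusted p = 0.0046). The MPP levels were below background, as was the mean of wild-type HSC (6.17).

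The call of Ndn in NFAT5-deficient cells rested on the arrays in the fit. Its adjusted p rose to 0.0889, 0.0764 and 0.0767 without NFAT5-deficient MPP arrays 64, 70 and 76, to 0.0757 without NFAT5-deficient HSC array 76, and to 0.0892 with only the NFAT5-deficient groups in the fit. The call averaged over the genotypes held without each array in turn, at a limma adjusted p of 0.00322 to 0.02. Without HSC arrays wild-type 66 and NFAT5-deficient 70 together, the difference in NFAT5-deficient cells was 1.54 (limma adjusted p = 0.0398).

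The 6 DNA repair targets all read higher in NFAT5-deficient than in wild-type cells, in HSC (median 0.30) and in MPP (median 0.38). Over all genes, 41.6% read higher in HSC and 38.9% in MPP. None of the 6 was called. Rrm2b, the p53-inducible ribonucleotide reductase subunit, read 8.99, 6.87 and 10.06 in NFAT5-deficient HSC against 6.78, 6.63 and 8.28 in wild-type HSC, and 8.89, 7.28 and 7.88 against 7.78, 6.91 and 6.15 in MPP. Its average difference was 1.24 (95% interval 0.00 to 2.48, limma adjusted p = 0.7), with overlapping arrays in both populations. Ddb2 and Xpc, which recognise damage in nucleotide excision repair, differed by 0.22 and 0.25 on average (limma adjusted p = 0.796 and 0.761), and the other 3 genes by 0.23 to 0.49.

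Of the 6 BCL2 family partners, 1 read higher and 5 lower in NFAT5-deficient cells, in HSC (median -0.18) and in MPP (median -0.30), beside the 41.6% and 38.9% of all genes that read higher. The gene that read higher was not the same: Mcl1 in HSC (0.31, and -0.07 in MPP) and Bcl2l1 in MPP (0.44, and -1.04 in HSC). None was called. Among regulators of p53, 10 of 13 read lower in HSC than in MPP on average over the genotypes (median -0.45), where 63.4% of all genes read higher, and none was called. Chek1, the kinase of the replication checkpoint, was the lowest of these at -1.06 (limma adjusted p = 0.519). Further one-sided groups included the 5 measured metabolic and stress targets, all above 0 in the interaction, where 53.3% of all genes were. The 6 BCL2 family partners all read higher in HSC than in MPP in NFAT5-deficient cells, where 62.1% of all genes did.

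In the 5 comparisons without a called gene of the wider list, the 2 genes with the smallest p-values were as follows. For NFAT5 loss in HSC these were Ndn (0.59, limma adjusted p = 0.779) and Apaf1, the core of the apoptosome (-0.82, limma adjusted p = 0.801). In MPP they were the p53 relative Trp73 (-0.58, limma adjusted p = 0.802) and the DNA damage kinase gene Atr (1.51, limma adjusted p = 0.896). Atr read 6.64, 9.16 and 6.92 on NFAT5-deficient MPP arrays 64, 70 and 76 against 5.95 to 6.20 in wild-type MPP, so array 70 carried most of its difference. For the interaction they were Apaf1 and Ndn, both with an adjusted p of 0.999. Averaged over HSC and MPP they were Trp73 (-0.34, limma adjusted p = 0.656) and Rrm2b. For HSC minus MPP in wild-type cells they were Ndn and Bcl2l1, which encodes the survival protein BCL-XL. Bcl2l1 read 9.94, 9.41 and 9.57 in wild-type HSC against 6.75, 6.55 and 7.30 in wild-type MPP, a difference of 2.77 (SE 0.70, limma adjusted p = 0.248). Its NFAT5-deficient arrays overlapped, at 8.08, 10.12 and 7.59 in HSC against 7.16, 6.11 and 8.65 in MPP.

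**Figure D4:**
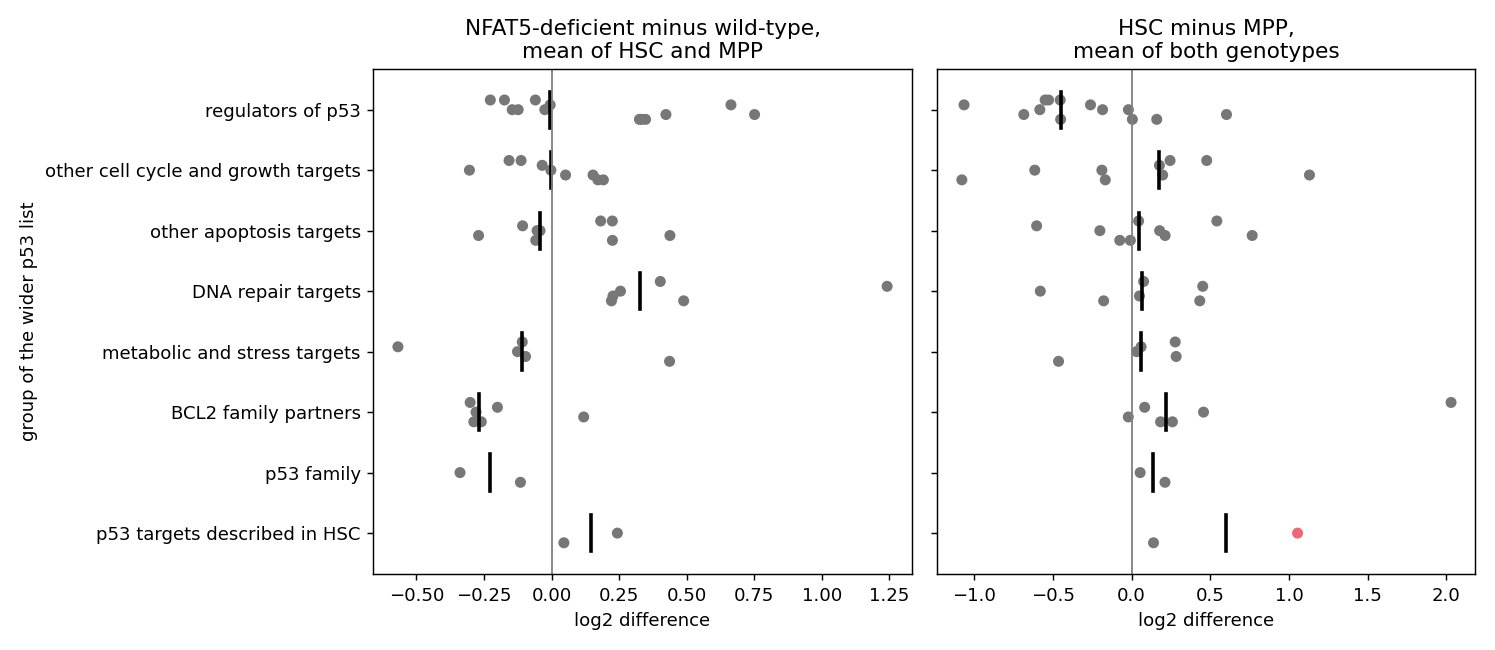
Log2 differences (horizontal axes) of the 52 measured genes of the wider p53 list by group of genes (vertical axis), NFAT5-deficient minus wild-type averaged over HSC and MPP on the left and HSC minus MPP averaged over the genotypes on the right; each point is a gene, black bars are medians, and the single coloured point is the called gene, Ndn. The 6 DNA repair targets all lie right of 0 on the left, with a median of 0.33, and the regulators of p53 have a median of -0.45 on the right.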

How the data were processed

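Total RNA (300 pg per sample, amplified with the NuGEN Ovation One-Direct system per the labels' protocols) was measured on 12 arrays. The authors deposited 1 table of log2 intensities per probe set. RMA and limma appear in the submitters' processing notes, with no version or role, and the range of the deposited values (2.51 to 13.28) shows the log2 scale. No detection calls or scan dates were used. The 12 arrays limit the precision.

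Of 22142 probe sets, 19527 had 1 symbol and 2615 none. For 33 genes with several probe sets the one with the highest mean was kept, which left 19494 genes. A mean for each of the 4 groups was fitted with limma 3.58.1 in R 4.3.3 (lmFit, eBayes with intensity trend), with Benjamini-Hochberg adjustment over all genes and a threshold of 0.05. The same 19494 genes entered all 7 comparisons. The fit was tested on simulated data with known changes, each larger than any difference fitted for the 8 genes over all arrays. It was not tested on smaller changes. Exact two-sided permutation tests compared single genes. Figures were drawn with matplotlib 3.10.9.

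The members, lists and tests were chosen with earlier results of these data known. Named genes were the 8 measured members in every comparison and, of the wider list, those called or, where none was called, the 2 with the smallest p, with the 3 genes most correlated with Mdm2. The same rule for Trp53 could not be applied. Examples that stand for a whole gene group were chosen after their values were seen. No planned rule covered which gene groups of the wider list to describe. Array numbers occur in both populations. Over all genes, deviations from the group mean correlated at r of -0.01 to 0.06 in the 6 same-number pairs. Between other numbers of a genotype r was -0.08 to 0.04. The arrays were therefore not treated as pairs, but such low values cannot show whether arrays of 1 number came from 1 animal. The mean of the mature neutrophil genes was lowest on array 75 in both wild-type populations, and on different numbers in the NFAT5-deficient populations. The alternatives were a filter on dim genes, other eBayes priors, only the groups compared, quantile normalization, median centring, array weights, the mean of probe sets, a block on array number, a threshold of 0.1, leaving out each array, and leaving out HSC arrays 66 and 70 together.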

Additional observations from a re-analysis of the deposited data

How the results depend on the processing

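None of the 8 genes was called in any of the 7 comparisons under any setting tried, including an adjusted p under 0.1, and the lowest adjusted p of any of them was 0.249. The filter on dim genes left 4 of the 8 (Mdm2, Ccng1, Bbc3 and Trp53inp1) and so gave no median of the 8. Medians of the 8 genes moved by less than 0.24, the SD of their median level between replicates. That SD is wider than every median difference reported, so it cannot show that a median kept its sign. With 1 array left out, the median ranged from -0.18 to 0.07 for NFAT5 loss in MPP and from -0.11 to 0.06 in HSC. For HSC minus MPP in wild-type cells it ranged from -0.06 to 0.20. The medians of the interaction and of NFAT5 loss on average kept their sign. Scaling moved the median of all genes by at most 0.06. With the array number as a block (replicate block), 0 of the 8 genes were called in each comparison, while calls over all genes for HSC minus MPP went from 32 to 5 in wild-type cells, from 41 to 3 in NFAT5-deficient cells and from 119 to 52 on average, and Ndn lost its calls (adjusted p = 0.179 in NFAT5-deficient cells and 0.0606 on average). With only the groups compared, these calls went from 32 to 9 and from 41 to 12, and quantile normalization took the latter to 23. Over all settings, leaving out arrays included, calls over all genes ranged from 0 to 3 for NFAT5 loss in HSC, from 0 to 6 in MPP (6 with array weights, beside 1 as reported), from 0 to 2 on average, from 0 to 1 for the interaction, and for HSC minus MPP from 5 to 39 in wild-type cells, from 3 to 59 in NFAT5-deficient cells (59 with array weights) and from 52 to 133 on average. With 1 array left out, the lowest were 11 in wild-type cells (without wild-type MPP array 75), 5 in NFAT5-deficient cells (without NFAT5-deficient MPP array 64) and 71 on average (without NFAT5-deficient MPP array 76). The settings for Ndn were added after its values were seen.

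Of 532 member differences under other settings, 17 changed sign, all of them uncalled, and the cause was not tested. Without HSC arrays wild-type 66 and NFAT5-deficient 70, NFAT5 loss in HSC gave -0.15 for Ccng1, -0.0691 for Sesn2 and 0.50 for Trp53inp1, and the interaction gave 0.0962 for Phlda3. HSC minus MPP in wild-type cells then gave 0.0052 for Sesn2, -0.0169 for Phlda3 and -0.0550 for Trp53inp1, in NFAT5-deficient cells 0.23 for Mdm2, and on average 0.0503 for Mdm2 and -0.0060 for Bbc3. With array weights, Trp53inp1 in HSC gave 0.0005 for NFAT5 loss and Mdm2 gave 0.0103 for HSC minus MPP in NFAT5-deficient cells. In that comparison quantile normalization gave 0.0443 for Mdm2 and -0.0481 for Phlda3, and centring gave -0.0243 for Phlda3. Quantile normalization gave -0.0122 for Mdm2 under NFAT5 loss on average, and centring gave -0.0012 for Bbc3 for HSC minus MPP on average.

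Leaving out each array in turn changed the sign of 40 of 672 values. For NFAT5 loss in HSC the ranges were -0.0123 to 0.47 (Mdm2), -0.21 to 0.41 (Ccng1), -0.0435 to 0.10 (Sesn2) and -0.68 to 0.37 (Trp53inp1). In MPP they were -0.22 to 0.11 (Mdm2), -0.23 to 0.0292 (Bbc3) and -0.0325 to 0.14 (Zmat3), and on average -0.0441 to 0.19 (Mdm2). For the interaction, Phlda3 ranged from -0.29 to 0.0539. For HSC minus MPP in wild-type cells the ranges were -0.0377 to 0.58 (Ccng1), -0.13 to 0.0448 (Sesn2), -0.0169 to 0.33 (Phlda3) and -0.22 to 0.27 (Trp53inp1). In NFAT5-deficient cells they were -0.25 to 0.23 (Mdm2), -0.16 to 0.0584 (Bbc3), -0.10 to 0.13 (Phlda3) and -0.0525 to 0.0251 (Zmat3), and on average -0.0192 to 0.12 (Bbc3). Ccng1, Pmaip1 and Sesn2 kept their sign in MPP without each array, at 0.93 to 1.39, -0.47 to -0.40 and -0.52 to -0.35.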

Other observations

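Cdkn1a, which encodes the cell cycle inhibitor p21 and is the best known arrest target of p53, was not among the listed genes and is given here after its values were seen. Its mean log2 intensity was 6.04 ± 0.31 in wild-type HSC and 6.49 ± 0.49 in NFAT5-deficient HSC, against 7.39 ± 0.59 and 7.29 ± 0.48 in the MPP groups (SD, n = 3 each). HSC minus MPP averaged -1.08 over the genotypes (95% interval -1.64 to -0.52, limma adjusted p = 0.11), so it was not called. The Cdkn1a mean in wild-type HSC lay below the background level of 6.30, and that in NFAT5-deficient HSC lay close to it. Plk2, a p53-induced kinase gene also taken after its values were seen, went the other way, with 5.52 and 5.75 in wild-type and NFAT5-deficient HSC against 4.56 and 4.44 in MPP, an average difference of 1.13 (95% interval 0.59 to 1.67, limma adjusted p = 0.0832), all below the background level of 6.30. Between genotypes Cdkn1a differed by 0.45 in HSC and -0.11 in MPP (limma adjusted p = 0.901 and 0.979).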
